A study of Mus musculus with 12 samples.

Results

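The transcription factors described here are 10 genes that set or maintain endothelial identity: Erg, Fli1, Ets1, Tal1, Lmo2, Gata2, Sox7, Sox17, Sox18 and Klf2. They were followed through every probe set of a whole-genome mouse array whose only annotated gene was 1 of the 10, which gave 18 probe sets of 45101 and 10 genes of 18193 named on the array. Of these 18 probe sets, 17 had enough signal to be tested, and each gene kept at least 1. RNA came from side population cells, the dye-excluding fraction obtained from a dissociated tissue, of 2 mouse muscles: the extraocular muscles (EOM), which move the eye, and the tibialis anterior (TA), a hind limb muscle. There were 6 preparations per muscle, each isolated independently and hybridized to its own array, with replicate numbers 0, 1, 2, 3, 5 and 6 in both groups. The labels give no genotype, strain, age, sex or treatment for either group, and nothing on whether 1 preparation held cells of 1 animal or of several. The comparison asks how the side populations of the 2 muscles differ, and the number of arrays limits the precision of every value.

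Endothelial cells line blood vessels, and in skeletal muscle most of them belong to the dense capillary bed. ERG, FLI1 and ETS1 belong to the ETS family, whose members recognize a short purine-rich core and bind the enhancers of most endothelial genes. TAL1, LMO2 and GATA2 work in blood and endothelial cells within 1 complex, in which LMO2 bridges the DNA-binding partners. SOX7, SOX17 and SOX18 make up the SOXF group, known for arterial and lymphatic specification, and KLF2 is induced by blood flow and keeps the vessel wall quiescent. Several of these factors are also made outside the endothelium, FLI1, TAL1, LMO2 and GATA2 in blood progenitors, ETS1 and KLF2 in lymphocytes. In a bulk sample, fewer cells of a type and less RNA per cell cannot be told apart.

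Promoter windows of 250 bases before a RefSeq transcript start (GRCm38.p6) were matched for Erg, Tal1, Gata2 and Klf2, 8 windows in all. Short motifs of the same factor families were searched on both strands: AGGAAG for ETS factors and, as a variant with another first letter, CGGAAG. The motif of GATA factors was AGATAA. The SOX motif was AACAAT. E-boxes, bound by helix-loop-helix factors such as TAL1, were searched as CAGCTG and also, in a further form, as CAGATG. The KLF motif was CCACCC. The pair below is shown because both genes fell in EOM and their windows held at least 1 match, printed 5′ to 3′ on the gene's strand with matches in capitals. The Erg window lies at chr16:95459349-95459598, minus strand, and belongs to the third of its 3 starts in the table. The Tal1 window lies at chr4:115056176-115056425, plus strand.
Erg: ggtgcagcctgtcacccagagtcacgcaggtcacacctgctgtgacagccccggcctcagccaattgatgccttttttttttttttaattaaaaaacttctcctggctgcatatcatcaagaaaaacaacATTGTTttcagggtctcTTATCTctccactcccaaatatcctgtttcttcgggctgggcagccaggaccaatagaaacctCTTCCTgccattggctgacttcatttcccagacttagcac
Tal1: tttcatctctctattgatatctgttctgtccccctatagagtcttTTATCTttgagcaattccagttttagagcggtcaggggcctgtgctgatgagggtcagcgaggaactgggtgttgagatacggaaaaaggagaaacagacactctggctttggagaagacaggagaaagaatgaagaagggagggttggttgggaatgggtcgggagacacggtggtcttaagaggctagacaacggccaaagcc

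In the Erg window a SOX match began 120 bases before the start, a GATA match 103 bases and an ETS match 40 bases before it, each on the reverse strand and none overlapping another. The Tal1 window held a GATA match that began 205 bases before the start. Among all 32851 windows of this length, AACAAT was found in 9.42%, AGATAA in 9.99% and AGGAAG in 29.5%. With several motifs searched in several windows, some matches like these would be found in any set of genes. Of the other 6 windows, only that of Klf2 held a match, CCACCC, found in 28.1% of all windows. These are descriptions of letters in a sequence and say nothing of binding.

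Some of the 12 arrays stood apart. On 9 arrays the median signal lay between 31.2 and 43.4. It was higher on EOM 1 (87.2), TA 3 (69.6) and TA 5 (63.2). Beta-actin gave a 3' to 5' ratio, which grows as RNA is shortened, of 104 (EOM 1), 165 (TA 3) and 100.2 (TA 5). On the other arrays it ran from 5.27 to 68.6, so it was well above 1 on all arrays. The RNA had been linearly amplified, and the part of that step in these ratios was not tested. Without these 3 arrays Ets1 alone among the 10 members changed its call, and the values of the members that moved most are given below. Over all 13067 genes tested the median log2 fold change was -0.04, with 53.1% of genes below 0.

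Most of the 10 factors were lower in EOM than in TA side population cells, with log2 fold changes from -3.91 (Sox17) to 0.24 (Lmo2). With limma and Benjamini-Hochberg adjustment over all 27022 tested probe sets (threshold 0.05), 7 of the 10 genes fell in EOM, 0 rose, and Ets1, Lmo2 and Klf2 did not pass. Of all genes tested, 10.9% were called, 6.81% lower and 4.05% higher in EOM. By probe set, 10 of the 17 tested fell and 0 rose, where 8.23% of all probe sets were called and 5.03% were called lower. The 6 EOM arrays lay below all 6 TA arrays for Erg, Fli1, Sox7, Sox17 and Sox18, a pattern seen in 4.8% of all genes, and for 0 members they lay above, as in 2.33% of all genes. With EOM 1 left out 10.5% of genes were called lower and 10% higher, and without EOM 1, TA 3 and TA 5 11.2% and 10.6%. The median log2 fold change of the 10 genes was -1.96. Fold changes are EOM minus TA on the scale log2(signal + 16), which understates changes of genes with low signal, and a gene stands for its brightest probe set on average unless said otherwise.

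**Figure D1:**
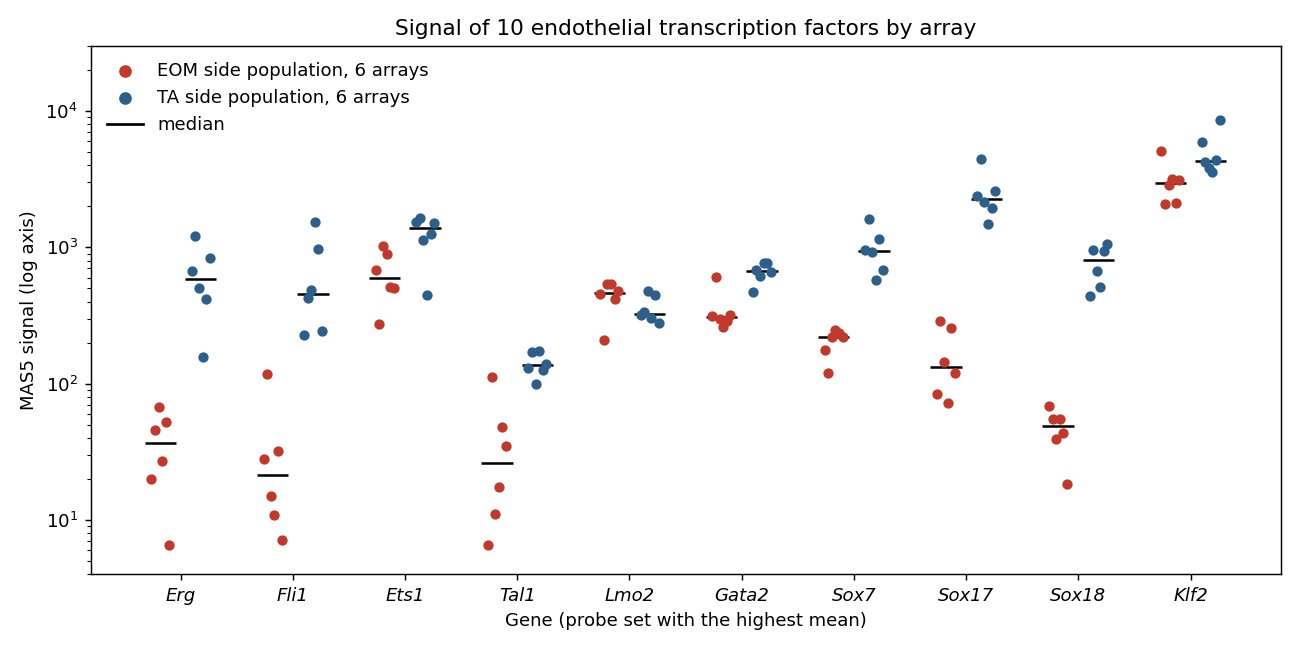
MAS5 signal (log axis) of the 10 factors on the 6 EOM and the 6 TA arrays, 1 point per array, with the median of each group as a bar. The groups do not overlap for Erg, Fli1, Sox7, Sox17 and Sox18, and they overlap for the other 5 genes.

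Erg, an ETS factor required for endothelial identity and vessel integrity, was near the bottom of the signal range in EOM and clearly above it in TA. Its signal was 6.5 at the lowest, 36.45 at the median and 67.6 at the highest in EOM, against 156.8, 588 and 1204 in TA. The lowest TA array was TA 3, which still lay above every EOM array. On the log2 scale the difference was -3.51 ± 0.42 (SE, n = 6 per group, limma adjusted p = 2.71e-05). It was -4.09 (adjusted p = 2.90e-07) without EOM 1, TA 3 and TA 5. The other Erg probe set was not tested: its signals reached at most 45.9 in EOM, on EOM 1, and 43.9 in TA.

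Fli1, the closest relative of Erg in sequence and a factor of megakaryocytes as well as endothelium, showed the same direction. Its signal ran from 7.1 over a median of 21.35 to 118.6 in EOM, and from 227.3 over 457 to 1535 in TA. The highest EOM array was EOM 1, with every other EOM array at or under 32.3, and the highest TA arrays were TA 3 and TA 5 at 1535 and 973. The log2 fold change was -3.65 ± 0.48 (SE, n = 6 per group, limma adjusted p = 6.25e-05), and -3.37 (adjusted p = 5.09e-07) without those 3 arrays. A further Fli1 probe set also fell, by less, at -1.83 ± 0.39 (limma adjusted p = 0.00535), with 5 of 6 EOM arrays below all TA arrays and EOM 1 inside the TA range. A difference in fold change between Erg and Fli1 was not detected: the within-array difference Erg minus Fli1 shifted by 0.14 between EOM and TA (exact permutation test over all 924 assignments, two-sided, p = 0.887, adjusted over 10 pairs 0.887). That p does not show that they changed alike, since the SD of this difference was 0.88 in EOM and 1.94 in TA.

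Ets1, an ETS factor of endothelium, lymphocytes and activated stroma, was well above background in both groups. The signal ran from 274.9 over 596 to 1031 in EOM and from 450.6 over 1382 to 1628 in TA. In EOM only EOM 1 lay below every TA array, and TA 3 was the lowest TA array, so the groups overlapped. A log2 fold change of -0.94 ± 0.35 did not pass (SE, n = 6 per group, limma adjusted p = 0.121). The 95% interval was -1.68 to -0.21. The suffix of this probe set (_s_at) marks probes shared by several transcripts. All 4 Ets1 probe sets had estimates below 0, between -1.20 and -0.61, and 0 of them passed. Without EOM 1, TA 3 and TA 5 Ets1 passed at -1.03 (adjusted p = 0.00355), and without TA 3 alone at -1.21 (adjusted p = 0.0188).

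The smaller estimate for Ets1 than for its relatives was itself tested. Erg minus Ets1 averaged -3.67 ± 0.91 in EOM against -1.10 ± 0.41 in TA, a shift of -2.57 on the log2 scale (SD over 6 arrays, exact permutation p = 0.00216, the smallest this design allows, adjusted over 10 pairs 0.0144). Fli1 minus Ets1 averaged -3.86 ± 1.49 in EOM against -1.16 ± 1.66 in TA (SD over 6 arrays, exact permutation p = 0.0152, adjusted 0.0303). The Erg difference passed in all 16 alternatives and the Fli1 difference in 11 of 16. Fli1 and Ets1 are neighbours on mouse chromosome 9, with 0 protein-coding genes between them in the RefSeq annotation, and of the pair Fli1 was called lower and Ets1 was not. Erg and Ets2, another ETS gene, are likewise neighbours on chromosome 16, where Ets2 averaged 3375 ± 1815 in EOM against 3197 ± 889 in TA (SD over 6 arrays), a log2 fold change of -0.17 (limma adjusted p = 0.912). The difference between Erg and Ets2 was not tested.

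**Figure D2:**
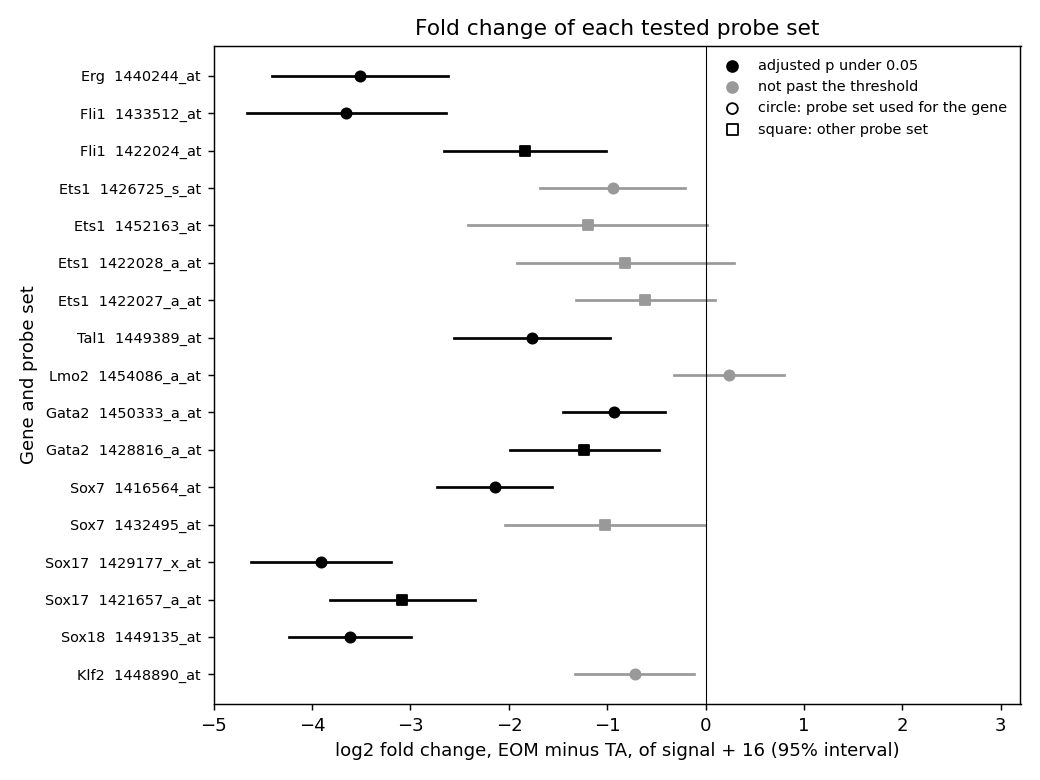
Log2 fold change (EOM minus TA, signal + 16) of the 17 tested probe sets with its 95% interval. Black marks the 10 probe sets with an adjusted p under 0.05, grey the others; circles are the probe set used for each gene and squares its further probe sets. Lmo2 alone has an estimate above 0.

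The SOXF genes all fell, Sox17 and Sox18 further than Sox7. Sox17, a factor of arterial endothelium, had a signal of 72.2 at the lowest, 131 at the median and 286.7 at the highest in EOM, against 1489, 2272 and 4478 in TA. The groups lay far apart, and TA 3 was the lowest TA array. Its log2 fold change was -3.91 ± 0.34 (SE, n = 6 per group, limma adjusted p = 7.71e-07), the lowest estimate of the 10 genes. Without EOM 1, TA 3 and TA 5 it was -4.33 (limma adjusted p = 3.44e-08). The suffix of this probe set (_x_at) marks probes that may bind other transcripts, while the further Sox17 probe set, of the kind common to several transcripts of 1 gene, fell too, at -3.08 ± 0.35 (adjusted p = 1.42e-05).

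Sox18, which is known for lymphatic and vascular development, had signals of 18.5, 49.15 and 68.7 in EOM and of 441, 808 and 1057 in TA (lowest, median and highest). Every EOM array lay far below the lowest TA array. EOM was lower by a log2 fold change of -3.62 ± 0.29 (SE, n = 6 per group, limma adjusted p = 4.48e-07).

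Sox7, the remaining SOXF gene, kept a measurable signal in EOM. It ran from 119.5 over 219.65 to 249.2 in EOM and from 571.9 over 938 to 1625 in TA, with no overlap. This gave a log2 fold change of -2.14 ± 0.28 (SE, n = 6 per group, limma adjusted p = 5.34e-05). For its further probe set the estimate of -1.03 missed the threshold (limma adjusted p = 0.247), with EOM 1, at 158, far above the other EOM arrays.

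Within the group, Sox7 fell less than the other SOXF genes. Sox7 minus Sox17 averaged 0.44 ± 0.96 in EOM against -1.33 ± 0.37 in TA, a shift of 1.77 (SD over 6 arrays, exact permutation p = 0.00433, adjusted over 10 pairs 0.0144). Sox7 minus Sox18 shifted by 1.47, from 0.35 ± 0.58 in TA to 1.83 ± 0.67 in EOM (SD over 6 arrays, exact permutation p = 0.00433, adjusted 0.0144). Both passed in all 16 alternatives. Sox17 minus Sox18 shifted by -0.30 (exact permutation p = 0.485, adjusted 0.539), with an SD of 0.89 in EOM and 0.52 in TA.

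The 3 factors of the TAL1 complex did not change alike in the test of their differences. Tal1, a basic helix-loop-helix factor of blood and endothelial cells, had a signal of 6.6, 26.2 and 111.5 in EOM and of 99.9, 135.9 and 172.8 in TA (lowest, median and highest). Of the EOM arrays 5 lay below all TA arrays, and EOM 1 lay within the TA range. The log2 fold change was -1.77 ± 0.38 (SE, n = 6 per group, limma adjusted p = 0.00542), -2.07 (adjusted p = 8.75e-05) without EOM 1, and -2.02 (adjusted p = 0.000208) without EOM 1, TA 3 and TA 5.

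Gata2, the zinc finger factor that maintains blood progenitors and endothelial gene expression, fell by less. Its signal ran from 260.2 over 306 to 603.5 in EOM and from 466.7 over 669 to 770.4 in TA. Once more 5 EOM arrays lay below all TA arrays, and EOM 1 was the exception. The log2 fold change was -0.93 ± 0.25 (SE, n = 6 per group, limma adjusted p = 0.0236), and the further probe set was at -1.23 (adjusted p = 0.0408). Of the 12 fits that left out 1 array 5 kept this call. It was lost without EOM 0, EOM 2, EOM 3, EOM 5, EOM 6, TA 1 or TA 5, with an adjusted p of at most 0.0672. Without EOM 1 Gata2 was at -1.10 (adjusted p = 0.000671), and without EOM 1, TA 3 and TA 5 at -0.98 (adjusted p = 0.00117). With each array centred on its median it was at -0.84 (adjusted p = 0.0727) and with quantile normalization at -0.88 (adjusted p = 0.0890).

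Lmo2, the LIM-only bridging protein of the complex, was the only member with a higher mean in EOM. Its signal ran from 207.5 over 466 to 536.9 in EOM and from 276.3 over 327 to 479.5 in TA, so the groups overlapped, with EOM 1 the lowest of all 12 arrays. Its log2 fold change was 0.24 ± 0.27 (SE, n = 6 per group, limma adjusted p = 0.725), with a 95% interval of -0.32 to 0.80. A fall of the size seen for Tal1 lies outside that interval. Without EOM 1 the estimate was 0.43 (adjusted p = 0.182), and without EOM 1, TA 3 and TA 5 it was 0.46 (adjusted p = 0.133).

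Differences within this trio were tested in the same way. Tal1 minus Lmo2 averaged -3.27 ± 1.37 in EOM against -1.26 ± 0.53 in TA (SD over 6 arrays, exact permutation p = 0.0152, adjusted over 10 pairs 0.0303). Lmo2 minus Gata2 averaged 0.32 ± 0.90 in EOM against -0.86 ± 0.38 in TA (SD over 6 arrays, exact permutation p = 0.0216, adjusted 0.0309), and Tal1 minus Gata2 shifted by -0.83 (exact permutation p = 0.0195, adjusted 0.0309). These 3 differences were less stable than those of the SOXF genes: they passed in 12, 7 and 8 of 16 alternatives. With a constant of 64 in place of 16, Tal1 minus Gata2 was at -0.21 (exact permutation test, adjusted p = 0.212).

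Klf2, the flow-responsive zinc finger factor, had strong signals in both groups. They ran from 2080 over 2987 to 5127 in EOM and from 3552 over 4302 to 8617 in TA, and 5 of 6 EOM arrays lay below all TA arrays, EOM 0 being the exception. Its log2 fold change of -0.72 ± 0.29 did not pass (SE, n = 6 per group, limma adjusted p = 0.154, 95% interval -1.33 to -0.12). Klf4, its close relative in endothelium and stroma, averaged 21044 ± 3103 in EOM against 19084 ± 4334 in TA (SD over 6 arrays, log2 fold change 0.16, limma adjusted p = 0.829), and its further probe set was at 1.10 (adjusted p = 0.0716). Klf2 minus Klf4 shifted by -0.88 and did not pass (exact permutation p = 0.0455, adjusted over 10 pairs 0.0568). It passed in 4 of 16 alternatives, without EOM 0, TA 2 or TA 3 and, at -1.35 (exact permutation test, adjusted p = 0.00541), with the mean of probe sets. Klf2 and Klf4 are also induced by tissue dissociation. Of 13 genes of the dissociation response 1 fell, the heat shock gene Hspa1a (-0.92, limma adjusted p = 0.0391), and 0 rose, with a median of -0.08. Over all genes tested 6.81% fell and 4.05% rose. The summed signal of these 13 genes was 116652 to 154502 in EOM and 131326 to 187298 in TA, and their part in the Klf2 values was not tested.

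The members were next set against endothelial genes of the same arrays, as the mean log2 level of Cdh5, Tie1, Tek, Kdr, Esam and Emcn. Cdh5, the endothelial cadherin, had a signal of 39.0 to 105.8 in EOM and 372.6 to 2273 in TA. The reference as a whole lay between 6.82 and 7.44 in EOM and between 8.24 and 10.6 in TA on the log2 scale, a shift of -2.53. Of its 6 genes 5 fell, where 6.81% of all genes did. Their log2 fold changes were -3.65 (Cdh5), -3.08 (Tie1), -2.99 (Esam), -2.85 (Kdr) and -2.43 (Emcn). Tek, the angiopoietin receptor, averaged 722 ± 310 in EOM against 842 ± 456 in TA (SD over 6 arrays, log2 fold change -0.18, limma adjusted p = 0.904). For Cdh5 a further probe set was at -0.48 (limma adjusted p = 0.686). With Tek left out, a choice made after seeing the data, the reference shifted by -3.0.

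Relative to this reference, Ets1, Lmo2, Gata2 and Klf2 were higher in EOM than in TA. The shift was 2.77 for Lmo2 and 1.81 for Klf2 (exact permutation p = 0.00216 each, the smallest this design allows, adjusted over 10 members 0.0108). For Gata2 it was 1.6 (exact permutation p = 0.00866, adjusted 0.0173), and for Ets1 1.59 (exact permutation p = 0.00433, adjusted 0.0144). All 4 passed in each of the 17 alternatives. Since the reference itself shifted by -2.53, a gene that did not change at all would also be higher relative to it. These 4 values thus show that the genes did not fall as far as the reference, not that they rose. How many of all genes would pass the same test was not examined. Sox17 was lower relative to the reference, by -1.38 (exact permutation p = 0.00866, adjusted 0.0173), as were Sox18, by -1.09 (exact permutation p = 0.0152, adjusted 0.0253), and Erg, by -0.98 (exact permutation p = 0.0238, adjusted 0.0340). Sox17 passed in 16 of 17 alternatives, Sox18 in 13 and Erg in 8, with 5 of the 12 that left out 1 array among those 8. With Tek left out of the reference these 3 no longer passed, at -0.91 (adjusted p = 0.0588), -0.62 (adjusted p = 0.10) and -0.51 (adjusted p = 0.166, exact permutation tests). Fli1 (-1.12, adjusted p = 0.233), Tal1 (0.76, adjusted p = 0.222) and Sox7 (0.39, adjusted p = 0.331) did not pass these exact permutation tests with the full reference either.

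**Figure D3:**
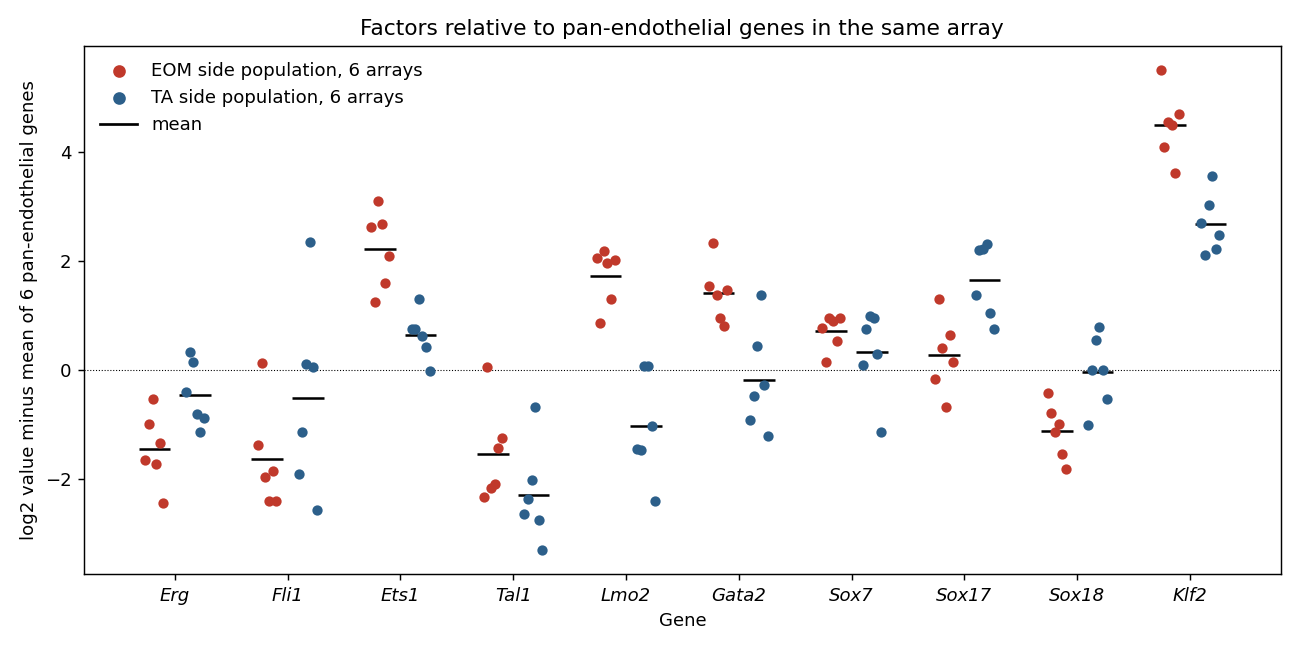
Log2 value of each factor minus the mean log2 value of 6 pan-endothelial genes on the same array, 1 point per array with the group mean as a bar. Lmo2 and Klf2 have all 6 EOM arrays above all 6 TA arrays, while Sox17 and Sox18 have lower means in EOM.

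Relatives and partners of the members mostly did not pass the test, whereas other endothelial factors and target genes often did. Of 13 ETS relatives tested 1 fell and 0 rose, with a median of 0.00, where all genes had -0.04. Among all genes tested, 6.81% were called lower and 4.05% higher in EOM. A count of 1 in the short ETS, SOX and KLF lists is thus near what any such list would hold. The 1 that fell was Elk3, an ETS repressor, which averaged 134 ± 25.1 in EOM against 802 ± 323 in TA (SD over 6 arrays, -2.38, limma adjusted p = 1.37e-05), although 2 of its 3 further probe sets, at -0.60 and 0.16, did not pass. Among 8 other SOX genes 1 fell, Sox13 (-1.55, limma adjusted p = 0.0458), with a median of -0.31, but in 16 of 24 alternatives 0 of them were called lower. Among 12 other KLF genes 1 fell, Klf10 (-1.77, limma adjusted p = 0.0111), with a median of -0.15, and with median centring 0 of them fell.

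Partners of TAL1, LMO2 and GATA2 were mixed. Of 13 tested 5 fell and 1 rose, with a median of -0.21, where 6.81% of all genes fell and 4.05% rose. The number that fell depended on the setting: it was 2 without EOM 2 or TA 6, and 3 without EOM 0, EOM 3, EOM 5, TA 1 or TA 5 or with median centring. Lyl1, the TAL1 paralogue, averaged 60.4 ± 94.7 in EOM against 182 ± 96.4 in TA (SD over 6 arrays, -1.88, limma adjusted p = 0.0245). The LIM-domain binding protein Ldb2 (-1.53, adjusted p = 0.00191), the corepressor Cbfa2t3 (-1.49, adjusted p = 0.00659), Lmo1 (-1.16, adjusted p = 0.0302) and the E protein Tcf4 (-1.02, adjusted p = 0.0318) fell as well. For Tcf4, 1 of 5 further probe sets had the other sign, at 0.11 (adjusted p = 0.947). Those at -0.74 (limma adjusted p = 0.125) and -0.83 (adjusted p = 0.0831) did not pass either. Those at -0.85 (adjusted p = 0.0375) and -0.82 (adjusted p = 0.0472) passed. Lmo4, a paralogue of Lmo2, rose, averaging 329 ± 113 in EOM against 127 ± 37.8 in TA (SD over 6 arrays, 1.24, limma adjusted p = 0.00829), but with each array centred on its median 0 of these genes rose.

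Of 15 other endothelial factors tested 7 fell and 1 rose, with a median of -1.70, where 6.81% of all genes fell and 4.05% rose. Tcf15, a factor of capillary endothelium that handles fatty acids, averaged 71.7 ± 33.6 in EOM against 909 ± 271 in TA (SD over 6 arrays, -3.47, limma adjusted p = 2.00e-06). Its partner in that programme, Meox2 (-3.0, adjusted p = 9.08e-06), the endothelial repressor Bcl6b (-2.80, adjusted p = 6.85e-05), Mef2c (-2.20, adjusted p = 0.000481) and the hypoxia factor Epas1 (-2.14, adjusted p = 0.000554) fell too. Foxc2, a forkhead factor of head mesenchyme and of lymphatic vessels, rose (2.19, adjusted p = 0.000205), with 66.3 to 158.6 in EOM and 4.5 to 25.4 in TA. With the filter on 60% of probe sets 0 of this list were called higher. That filter changes no value and only leaves out probe sets with a low mean, so Foxc2 was then not tested.

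Genes known as targets of these factors were mostly lower in EOM as well. Of 29 tested 21 fell and 0 rose, where 6.81% of all genes fell and 4.05% rose. Their median was -2.30, and the list includes the 6 reference genes. Those that changed most were Egfl7 (-4.75), the adhesion molecule Icam2 (-4.04), the clotting protein Vwf (-4.00), the VEGF receptor Flt1 (-3.81), Mmrn2 (-3.70) and Cdh5 (-3.65). Some targets ascribed to KLF2 are named here, picked after their values were seen. Nos3, the endothelial nitric oxide synthase, fell (-2.62, limma adjusted p = 0.000252). S1pr1, a sphingosine phosphate receptor, fell (-1.96, adjusted p = 0.000455), and Thbd, thrombomodulin, was at -0.41 (adjusted p = 0.614). In the same list Edn1 fell (-1.42, adjusted p = 0.0150) and Vcam1 was at -0.04 (adjusted p = 0.986). Whether any of these values follow that of Klf2 was not tested.

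**Figure D4:**
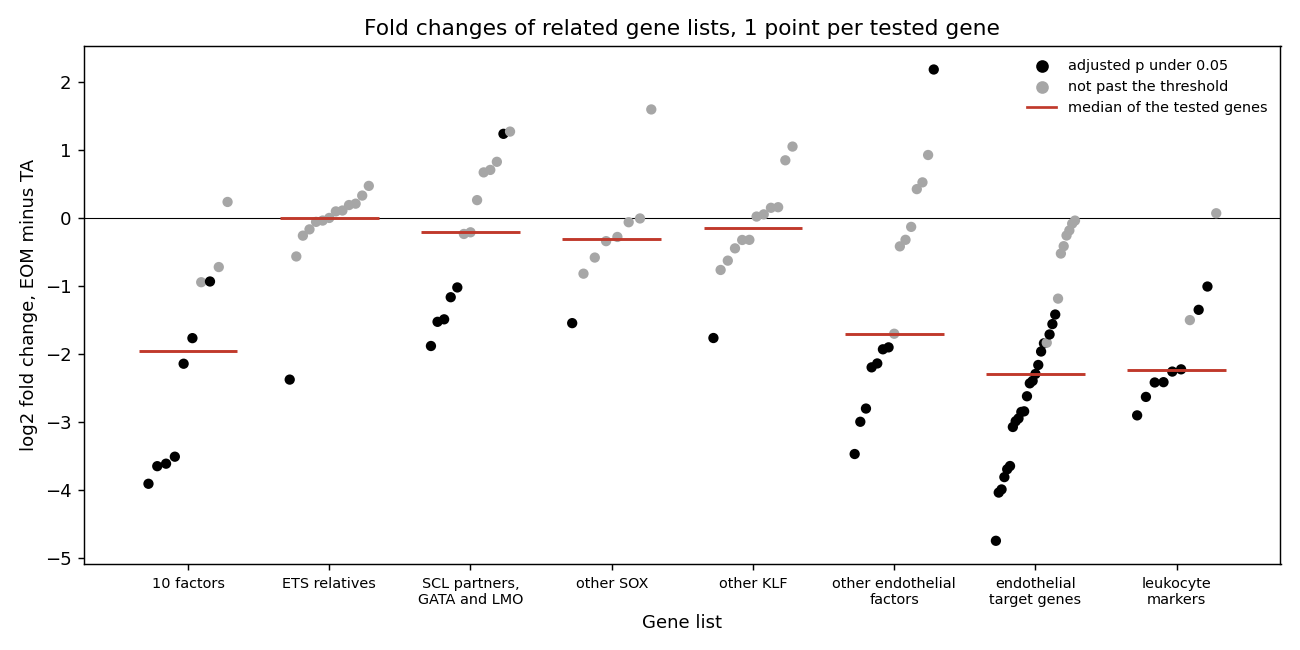
Log2 fold change (EOM minus TA) of each tested gene in the 10 factors, 6 lists of relatives, partners and targets, and leukocyte markers, with the median of each list as a red bar. Black points have an adjusted p under 0.05. The medians are -1.96 for the 10 factors, between -0.31 and 0.00 for the ETS, TAL1 partner, SOX and KLF lists, and -2.30 for the target genes.

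Among markers of other cell types, those of leukocytes and of pericytes and smooth muscle were mostly lower in EOM as well. Fibroblast markers rose or were not called, and most markers of the remaining types were not called. The shares over all genes tested were 6.81% called lower and 4.05% called higher in EOM. Of 10 leukocyte markers 8 fell and 0 rose, with a median of -2.24, and their summed signal was 505 to 4416 in EOM and 4580 to 11503 in TA. Of 5 T cell markers tested 2 fell, Il7r (-2.07) and Lat (-1.64), while Cd3d, Cd3e, Cd3g and Cd4 were too low to be tested. The summed T cell signal was 170 to 548 in EOM and 599.9 to 1065 in TA. No B cell (0 of 3), megakaryocyte (0 of 3) or erythroid marker (0 of 1) was called, and of 5 mast cell markers Hdc fell (-3.17). Of 9 pericyte and smooth muscle markers 6 fell, with summed signals of 6046 to 10458 in EOM and 19654 to 33027 in TA. Of 10 fibroblast markers 5 rose and 0 fell, with a median of 1.36 and sums of 125016 to 220650 in EOM and 70383 to 125334 in TA. A further probe set of the fibroblast marker Col1a2 was lower in EOM (-1.55, limma adjusted p = 0.0140), while those of Pdgfra, Pi16 and Dpep1 were higher. For the pericyte marker Abcc9 a further probe set was higher (1.87, limma adjusted p = 0.0367), while those of Rgs5 and Cspg4 were lower. The part of these cell types in the values of Fli1, Ets1, Tal1, Gata2, Lmo2 and Klf2 was not tested. The 6 endothelial markers ranged in mean signal from 22.8 (Tie1) to 722 (Tek) in EOM and from 328 (Tie1) to 2038 (Esam) in TA. Of 4 myogenic markers tested 1 fell, the integrin subunit Itga7 (-2.25, limma adjusted p = 0.000536), while Pax3 (-0.27), Cdh15 (-0.32) and Myod1 (-1.28) did not pass. Pax7, Myf5, Myog and Myf6 were too low to be tested. The summed myogenic signal was 140 to 575 in EOM and 469 to 900 in TA.

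The genes whose pattern over the 12 arrays lay closest to each member were found by the mean absolute difference of log2 values, each gene centred on its own mean, among 13066 other genes. Closest to Sox17 were the pericyte gene Rgs5 (0.26), the adhesion receptor Adgrf5 (0.28) and Gimap8 (0.32). Closest to Sox18 were Afap1l1 (0.38), Clic5 (0.40) and Ptprb (0.41), an endothelial receptor phosphatase. For Erg they were Rasgrp3 (0.36), Cd36 (0.37), a fatty acid transporter of capillaries, and Tcim (0.39), and for Fli1 Pde2a (0.37), Myh9 (0.38) and Kif26a (0.49). Sox7 lay near Lnx1, Upp1 and Pkp4 (each 0.27), and Tal1 near Srpk3 (0.21), L1cam (0.27) and Ms4a6b (0.28). The nearest gene was Efnb1 for Gata2 (0.15), Zbtb2 for Lmo2 (0.16), Cnst for Klf2 (0.21) and Kctd10 for Ets1 (0.22), and none of these 4 genes passed the threshold. Such distances are smaller for any gene that varies little. Because each gene was centred over the arrays of both muscles, a gene with a like fold change also lies near. Rgs5, for example, had a log2 fold change of -3.96 beside -3.91 for Sox17. Nearness here does not show that 2 genes vary together within a muscle or are made by the same cells.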

How the data were processed

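Total RNA of 12 side population preparations was linearly amplified and hybridized to Affymetrix Mouse 430 2.0 arrays, per the labels' protocols. Values were deposited as linear signal intensity per probe set, which the authors summarized with MAS5, per the submitters' processing notes. The mean of each column, trimmed by 2% at each end, was 150.001, so the arrays had been scaled to 1 value. Build, scan dates and present calls are not given in the sources used here.

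Groups come from the sample titles. Genes were named through the platform annotation. Signals were used as log2(signal + 16), control probe sets and the 40% with the lowest mean log2 value were left out, and the muscles were set against each other in limma 3.58.1, R 4.3.3 (intensity trend, two-sided, Benjamini-Hochberg). A gene was its probe set with the highest mean. On simulated data with the real spread of each probe set (27022 probe sets) 91% of changes of 3 log2 units and 45% of changes of 1.5 were recovered. The simulated noise was normal and independent between probe sets, with no lower limit of signal and no array that stood apart. Recovery in the real data, above all for genes with low signal, may thus be lower. Differences between members were tested by exact permutation over 924 assignments of the arrays.

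Named genes were the 10 members, the 6 reference genes, up to 6 called genes with the largest change from each related list, and the 3 genes nearest in pattern to each member; Klf4 was named as a pair of Klf2, and further genes (Ets2, the KLF2 targets and single markers) were chosen after their values were seen. The members and lists were chosen with earlier results of these data known. P-values set the difference between the muscles against the spread between these preparations.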

Additional observations from a re-analysis of the deposited data

Results flagged for a closer look

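Of 34 groups examined (17 probe sets of the members in 2 groups of 6 arrays), 10 held an array whose log2 value stood apart from the nearest other by more of the group's range than Dixon's critical value allows, where chance flags about 1 in 20. EOM 1 was that array in 6 of them. For Ets1 it was the lowest EOM array with 1 probe set (signal 26.7, next 366) and the highest with another (1201.6, next 155.5). For Gata2 it was the highest with both, at 603.5 (next 320.2) and 232.1 (next 85.1). It was the lowest EOM array for Lmo2, at 207.5 (next 414.4), and the highest for the further Sox7 probe set, at 158 (next 38.8).

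Among the TA arrays, TA 3 was the lowest for Ets1 with 2 probe sets, at 450.6 (next 1136.9) and 277.2 (next 750.5). TA 5 was the lowest with another Ets1 probe set, at 53.6 (next 107.3), and TA 2 with the further Gata2 probe set, at 85.8 (next 207.8). EOM 1, TA 3 and TA 5 are the arrays with the highest median signals and 3' to 5' beta-actin ratios, and whether these account for the values was not tested.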

How the results depend on the processing

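Over 24 alternatives, between 6 and 9 of the 10 members were called lower in EOM and 0 higher, and no fold change of a member reversed. Erg, Fli1, Tal1, Sox7, Sox17 and Sox18 passed in all 24, Gata2 in 14, Ets1 in 5, Klf2 in 2 and Lmo2 in 0. Ets1 passed with array weights, the beta-actin ratio as a covariate, the mean of its probe sets, without TA 3 and without the 3 arrays that stood apart; Klf2 passed with the first 2 of these settings. Deviations of same-numbered preparations showed no common sign (6 correlations from -0.32 to 0.16, of which 2 exceeded 0.1), so the numbers were not taken to pair them. The lowest values were those of replicates 3 (-0.32) and 1 (-0.26), which include TA 3 and EOM 1, so this check cannot exclude a pairing. With the replicate block Gata2 was at -0.93 (limma adjusted p = 0.0724), and no other member's call changed; of the partners of TAL1, LMO2 and GATA2, 2 fell in place of 5. Related genes called higher in EOM, 2 of 90 where 4.05% of all genes were, numbered 4 with the filter on 60% (5.69% of all genes), 8 with array weights (12%), 7 with the beta-actin covariate (5.79%), 7 without EOM 1, TA 3 and TA 5 (10.6%), and 5 with the mean of probe sets (4.61%). Leaving out 1 array at a time they were 2 to 9, with 9 without EOM 1 (10%), 5 without TA 2 (3.49%) and 4 without TA 3 (4.22%); pairs of members past the threshold, 7 of 10, were 3 to 8. They were 3 without EOM 2, EOM 3 or TA 1 and 4 without TA 6. Members past the threshold relative to endothelial genes, 7 of 10, were 5 to 8 with 1 array left out and 4 with Tek left out of the reference, an alternative chosen after seeing the data. The cause of these changes was not tested. The low signals of Erg, Fli1, Tal1 and Sox18 in EOM limit how large a fall can be measured.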
